A study of Mus musculus with 48 samples.

Results

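Markers of cell lineages outside the skeleton were measured in skeletal stem and progenitor cells sorted from the limbs of C57BL/6 mice at postnatal day 3. The list holds 29 named genes of the 55487 rows of the RNA count matrix, and it was drawn up with earlier results of these data known: 6 endothelial, 6 leukocyte, 4 erythroid, 6 muscle, 5 adipocyte and 2 Schwann cell genes. All 29 were found in the matrix through their Ensembl identifiers. The sorts were of skeletal stem cells (SSC), of progenitors of bone, cartilage and stroma (BCSP) and of the pre-BCSP stage (pBCSP). All donors carried floxed Ptip alleles. The WT donors were Ptipf/f without a Cre transgene, and the KO donors were Ptipf/f;Col2a1-cre, in which Cre is driven by regulatory sequence of Col2a1, a gene of cartilage-forming cells. Ptip is the gene listed as Paxip1, which encodes a protein associated with histone H3 lysine 4 methyltransferases. WT and KO each had 2 RNA libraries per population, 12 in all. Nothing in the labels states that the 2 libraries of a group came from separate animals, so the p-values measure only the spread between these libraries, which may be technical.

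The protocols used to sort these populations in mouse limbs usually discard cells that carry the pan-leukocyte protein CD45, the erythroid antigen Ter119 or the endothelial receptor Tie2. The labels of these samples do not give the gates. A sorted population can still carry some RNA of other cell types. In such bulk libraries, fewer cells of a type and less RNA per cell cannot be told apart.

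Levels are given as CPM, the reads of a gene per 1000000 reads of the library's size, with sizes scaled by TMM (the trimmed mean of M-values). They are not corrected for gene length, so each gene is compared between libraries and not with other genes. The libraries held 15495915 to 22670899 counted reads, and 3 reads, the limit that a count of 0 allows, corresponded to 0.134 to 0.208 CPM. Such limits cover counting error only. The second SSC KO library stood apart, with reads for 13987 genes against 20965 to 23831 in the other 11. Paxip1 measured 7.25 to 14.6 CPM in the 6 WT libraries and 0 to 3.48 CPM in the 6 KO libraries. The 10 skeletal genes followed summed to 32000 to 76300 CPM in every library. The sum was lowest in the second SSC KO library, where 1 of the 10 had 0 counts. Col2a1 alone measured 21100 to 58100 CPM. The 29 lineage markers together summed to 67.2 to 1270 CPM.

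**Figure D1:**
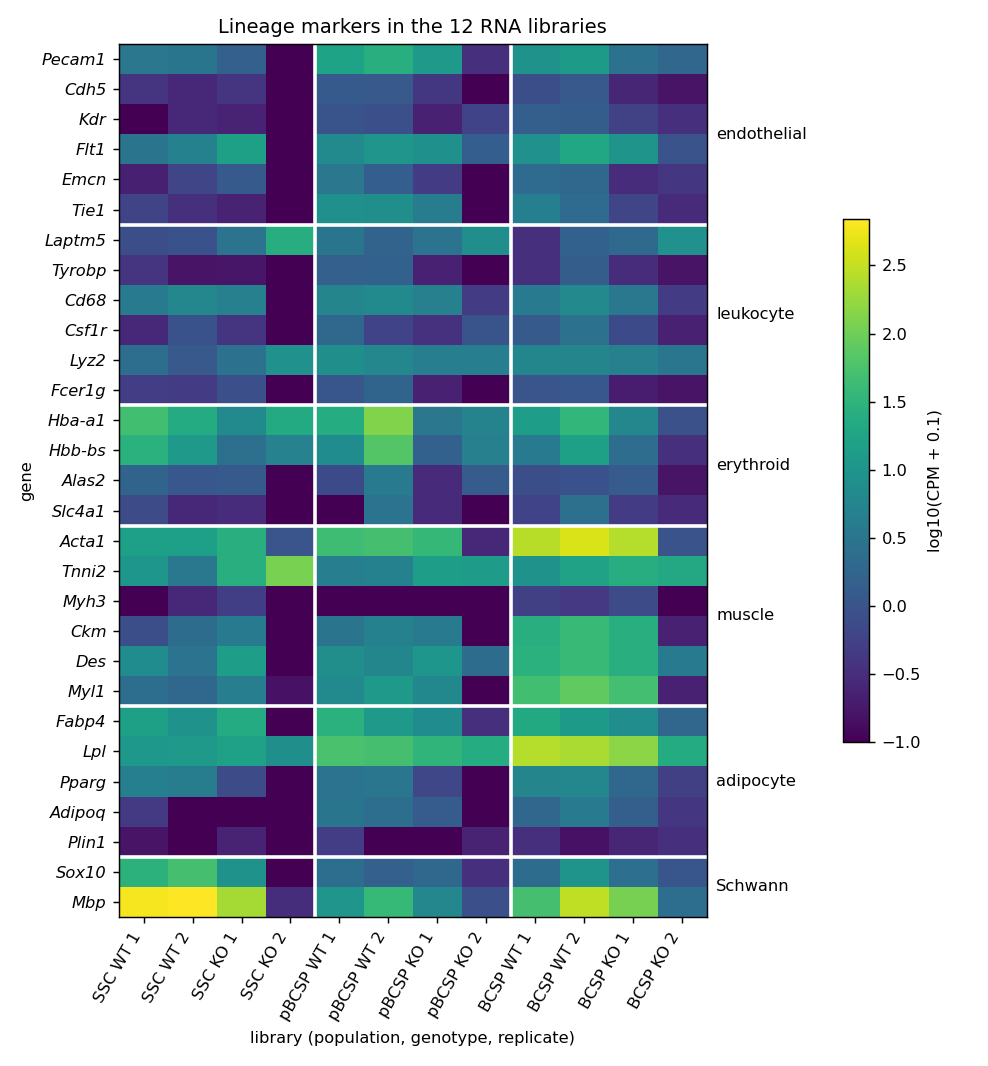
Level of each of the 29 lineage markers (rows, grouped by lineage) in each of the 12 RNA libraries (columns), shown as log10(CPM + 0.1). Mbp is brightest in SSC WT (618 and 697 CPM), Acta1 and Lpl in BCSP WT, and most rows are dark in the second SSC KO library, where 20 of the 29 genes have 0 counts.

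Endothelial cells line blood vessels. Pecam1 and Cdh5 encode proteins of their junctions, Kdr and Flt1 encode receptors for vascular endothelial growth factor, Tie1 encodes a receptor of the angiopoietin pathway and Emcn encodes a surface sialoglycoprotein of capillaries and veins. In WT, all 6 genes were lower in both SSC libraries than in every pBCSP and BCSP library. Pecam1 measured 3.23 and 2.98 CPM in SSC, with 16.7 and 25.2 CPM in pBCSP, then 8.88 and 12.3 CPM in BCSP. Tie1 measured 0.519 and 0.239 CPM in SSC, with 8.54 and 8.00 CPM in pBCSP, then 4.44 and 2.14 CPM in BCSP. For both genes the libraries of the 3 populations did not overlap. In KO, Pecam1 measured 1.39 and 0 CPM in SSC, with 11.3 and 0.226 CPM in pBCSP, then 2.74 and 1.76 CPM in BCSP, below WT of the same population in all 6 libraries. Flt1 and Emcn did not follow Pecam1 in the first SSC KO library. Flt1 measured 15.2 CPM there against 2.88 and 4.72 CPM in SSC WT, and Emcn 1.11 CPM against 0.115 and 0.537 CPM. The 6 genes summed to 18.2 CPM in that library, against 7.03 and 8.83 CPM in SSC WT. The second SSC KO library held 0 reads of all 6 endothelial genes.

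The start regions of 4 endothelial genes are in the RefSeq promoter table, and 2 of them carried a peak of H3K4me3, a histone mark of active or poised promoters. Kdr and Flt1 had a peak in all 3 WT and all 3 KO lists, and Tie1 and Emcn had none. The 3 sequences below are shown because they set a marked start beside an unmarked one of the same lineage. Each runs from 250 bases before to 50 bases after the start on the gene's strand, from RefSeq on GRCm38.p6, and capitals mark CpG pairs. Kdr lies at chr5:75978406-75978705 (minus strand) with 19 CpG pairs, Flt1 at chr5:147725962-147726261 (minus strand) with 29, and Tie1 at chr4:118489800-118490099 (minus strand) with 7.
Kdr: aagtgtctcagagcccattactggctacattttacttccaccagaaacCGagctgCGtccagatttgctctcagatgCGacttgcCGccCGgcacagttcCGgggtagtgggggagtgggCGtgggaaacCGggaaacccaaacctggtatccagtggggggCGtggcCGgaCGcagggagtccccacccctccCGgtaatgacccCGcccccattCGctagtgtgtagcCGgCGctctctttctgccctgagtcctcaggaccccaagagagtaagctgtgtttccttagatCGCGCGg
Flt1: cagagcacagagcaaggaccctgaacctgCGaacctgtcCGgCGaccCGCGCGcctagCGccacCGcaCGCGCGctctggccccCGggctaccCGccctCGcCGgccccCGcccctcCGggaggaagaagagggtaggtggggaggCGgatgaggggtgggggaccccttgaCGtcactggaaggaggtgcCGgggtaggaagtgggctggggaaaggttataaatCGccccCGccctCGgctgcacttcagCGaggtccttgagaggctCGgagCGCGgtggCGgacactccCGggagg
Tie1: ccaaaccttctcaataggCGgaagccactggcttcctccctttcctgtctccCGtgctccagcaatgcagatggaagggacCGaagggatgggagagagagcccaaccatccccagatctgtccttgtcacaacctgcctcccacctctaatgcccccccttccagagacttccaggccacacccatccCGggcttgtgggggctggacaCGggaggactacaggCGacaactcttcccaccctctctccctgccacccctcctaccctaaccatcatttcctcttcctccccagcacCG

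The leukocyte genes were Tyrobp and Fcer1g, which encode signalling adaptors of myeloid receptors, Csf1r, the receptor for colony-stimulating factor 1, Cd68, a macrophage lysosomal protein, Lyz2, lysozyme of myeloid cells, and Laptm5, a lysosomal membrane protein of blood cells. Levels of Tyrobp, Csf1r and Fcer1g were low and did not exceed 2.64 CPM in any library. Laptm5 and Lyz2, described below, were higher in some libraries. Ptprc, which encodes CD45, did not exceed 0.579 CPM. Tyrobp measured 0.288 and 0.0597 CPM in SSC WT, 1.42 and 1.46 CPM in pBCSP WT, and 0.247 and 1.24 CPM in BCSP WT. In KO it measured 0.0693 and 0 CPM in SSC, with 0.126 and 0 CPM in pBCSP, then 0.211 and 0.0608 CPM in BCSP. These KO values were below 3 reads except the larger one of BCSP, and the pBCSP WT pair and the second BCSP WT library were the only ones above 1 CPM.

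Laptm5 went the other way. It measured 0.749 and 0.836 CPM in SSC WT against 2.84 and 24.4 CPM in SSC KO, 3.03 and 1.57 CPM in pBCSP WT against 2.84 and 8.18 CPM in pBCSP KO, and 0.247 and 1.46 CPM in BCSP WT against 1.95 and 8.64 CPM in BCSP KO. The second KO library was the highest of its population each time, and the groups overlapped in pBCSP. In the second SSC KO library, where Laptm5 was highest, 4 of the 6 leukocyte markers and all 15 further leukocyte genes followed, Ptprc among them, had 0 counts. RefSeq places Laptm5 at chr4:130912890-130936148, overlapping Gm38599, and reads of overlapping genes cannot be told apart where strand is not given. This limit is not particular to Laptm5. Cdh5, Kdr, Flt1, Emcn, Csf1r, Alas2, Myh3, Ckm, Des and Mbp also overlap other genes in RefSeq. Its start had no H3K4me3 peak in any of the 6 lists. The start is shown because Laptm5 RNA was highest in a library where 4 of the 6 leukocyte markers had 0 counts. It lies at chr4:130913066-130913365 (plus strand), with 9 CpG pairs in capitals.
Laptm5: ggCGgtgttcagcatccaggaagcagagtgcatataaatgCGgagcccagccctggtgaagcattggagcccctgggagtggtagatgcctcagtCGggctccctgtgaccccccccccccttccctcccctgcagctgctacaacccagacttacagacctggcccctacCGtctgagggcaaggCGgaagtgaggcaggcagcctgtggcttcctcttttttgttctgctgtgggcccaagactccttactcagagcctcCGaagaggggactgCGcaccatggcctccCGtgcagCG

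Lyz2 was the other leukocyte gene present in that library, at 8.59 CPM. It measured 2.36 and 1.07 CPM in SSC WT and 2.70 CPM in the first SSC KO library, so both KO libraries of SSC were above both WT libraries. In pBCSP the order was opposite, with 8.14 and 5.89 CPM in WT and 4.23 and 4.34 CPM in KO. BCSP repeated the pBCSP order, with 5.72 and 5.51 CPM in WT and 4.58 and 3.10 CPM in KO. Beside Lyz2, 7 granulocyte genes followed, which encode granule and antimicrobial proteins such as S100a8, S100a9 and Mpo, were all detected in the second SSC KO library. They summed to 58.0 CPM there, against 1.39 CPM in the first SSC KO library and 7.49 and 5.49 CPM in SSC WT. In pBCSP the same genes summed to 46.6 and 44.0 CPM in WT and 2.84 and 1.76 CPM in KO. Their part in the Lyz2 values was not tested. The 6 lymphocyte genes followed summed to 0 CPM in the second SSC KO library and to 0.534 to 3.26 CPM in the others. The highest sum was in the first SSC KO library. Among these genes, the B cell gene Ms4a1 and the T cell gene Cd3g had 0 counts in all 12 libraries.

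Erythroid cells carry haemoglobin. Hba-a1 and Hbb-bs encode its alpha and beta chains, Alas2 the first enzyme of haem synthesis in red cell precursors, and Slc4a1 the anion exchanger of the red cell membrane. Hba-a1 measured 47.9 and 23.3 CPM in SSC WT, 23.6 and 130 CPM in pBCSP WT, and 13.8 and 35.3 CPM in BCSP WT. In KO it measured 6.65 and 22.6 CPM in SSC, with 3.22 and 5.20 CPM in pBCSP, then 5.96 and 0.791 CPM in BCSP. Both KO libraries were below both WT libraries in every population, although the second SSC KO library lay just under the lower WT value. Hbb-bs followed the same pattern, with 3.90 to 64.4 CPM over the 6 WT libraries and 0.243 to 4.88 CPM over the 6 KO libraries. The spread within WT was wide, with 7.34 and 64.4 CPM of Hbb-bs in the 2 pBCSP libraries. Hba-a1 and Hba-a2, and Hbb-bs and Hbb-bt, are near-identical copies, so how their reads were divided is uncertain. Hba-a2 measured 1.78 to 35.1 CPM in WT and 0.487 to 4.32 CPM in KO, with both KO libraries below both WT libraries in each population. Hbb-bt showed this order in SSC and pBCSP but not in BCSP, where it measured 1.33 and 5.79 CPM in WT and 1.48 and 0 CPM in KO. Alas2 and Slc4a1 did not exceed 3.62 CPM, and both had 0 counts in the second SSC KO library, where Hba-a1 was at 22.6 CPM. None of the 3 erythroid starts in the promoter table had an H3K4me3 peak. The start of Hbb-bs, shown as the one among them with the fewest CpG pairs (2, in capitals), lies at chr7:103827879-103828178 (minus strand).
Hbb-bs: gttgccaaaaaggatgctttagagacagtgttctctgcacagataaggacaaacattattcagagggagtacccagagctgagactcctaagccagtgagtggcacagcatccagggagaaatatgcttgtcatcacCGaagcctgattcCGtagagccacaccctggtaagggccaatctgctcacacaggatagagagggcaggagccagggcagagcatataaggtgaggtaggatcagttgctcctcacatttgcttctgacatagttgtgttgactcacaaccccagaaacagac

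In WT, the 6 skeletal muscle markers had their highest mean in BCSP, although the SSC and BCSP libraries overlapped for Tnni2. Acta1 encodes skeletal alpha actin, Myl1 a myosin light chain, Ckm muscle creatine kinase, Des the intermediate filament desmin, Tnni2 fast skeletal troponin I and Myh3 embryonic myosin heavy chain. Acta1 measured 14.8 and 14.5 CPM in SSC WT, 43.8 and 50.7 CPM in pBCSP WT, and 272 and 416 CPM in BCSP WT. Myl1 showed the same order, with 2.31 and 1.79 CPM, then 6.59 and 11.5 CPM, then 48.5 and 79.5 CPM. The WT populations did not overlap for either gene. The first KO libraries kept this order, with 26.3, 35.6 and 260 CPM of Acta1 in SSC, pBCSP and BCSP. The second KO libraries did not, with 0.943, 0.181 and 0.852 CPM. Ckm was likewise at 26.7 CPM in the first BCSP KO library and 0.122 CPM in the second.

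Tnni2 stood apart from the other muscle genes. It measured 10.3 and 3.34 CPM in SSC WT against 26.1 and 117 CPM in SSC KO, 4.23 and 4.81 CPM in pBCSP WT against 14.4 and 12.7 CPM in pBCSP KO, and 8.92 and 16.5 CPM in BCSP WT against 25.1 and 20.6 CPM in BCSP KO. Both KO libraries were above both WT libraries in each population. In the second SSC KO library, where Tnni2 was highest, 3 of the 6 muscle markers and 14 of 18 further muscle genes had 0 counts. The 4 that did not were Tnnt3, at 41.7 CPM, Mylpf, at 6.26 CPM, Neb, at 0.832 CPM, and Ttn, at 0.554 CPM. Tnnt3 encodes fast skeletal troponin T and measured 10.4 to 91.1 CPM over all 12 libraries. Tnni2 lies at chr7:142441816-142444410 and overlaps no other gene in the RefSeq table.

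Acta1 is shown beside Des because the starts have nearly the same number of CpG pairs and only Des had H3K4me3 peaks. The start of Acta1 lies at chr8:123894726-123895025 (minus strand) with 12 CpG pairs, and that of Des at chr1:75360042-75360341 (plus strand) with 11, again in capitals.
Acta1: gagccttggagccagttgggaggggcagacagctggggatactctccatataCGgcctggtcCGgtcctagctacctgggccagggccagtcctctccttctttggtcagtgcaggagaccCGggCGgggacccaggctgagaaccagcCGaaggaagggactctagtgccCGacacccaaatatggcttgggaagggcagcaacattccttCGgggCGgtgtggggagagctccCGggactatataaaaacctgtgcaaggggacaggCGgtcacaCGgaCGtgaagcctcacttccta
Des: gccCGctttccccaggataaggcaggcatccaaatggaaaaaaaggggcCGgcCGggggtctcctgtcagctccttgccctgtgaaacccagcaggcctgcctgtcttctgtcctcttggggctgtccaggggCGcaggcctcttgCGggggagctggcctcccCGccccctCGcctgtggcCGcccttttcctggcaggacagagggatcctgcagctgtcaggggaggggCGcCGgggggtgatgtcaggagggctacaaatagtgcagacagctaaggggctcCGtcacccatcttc

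**Figure D2:**
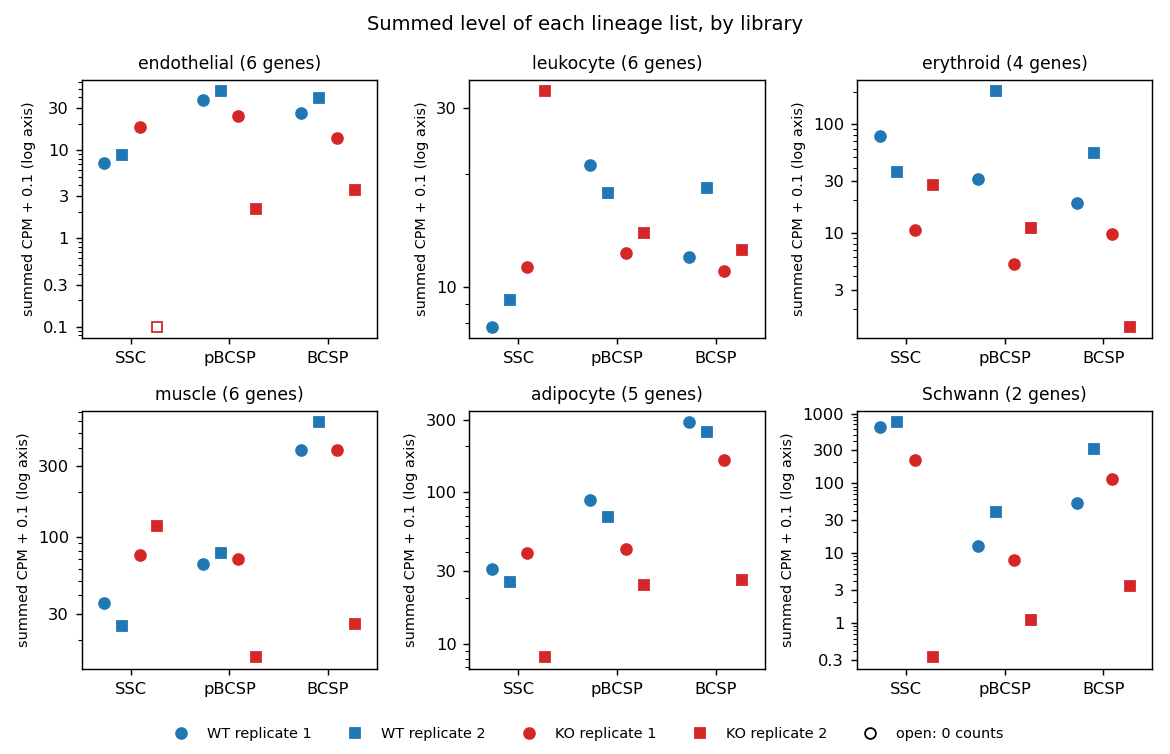
Summed level of each lineage's markers in each library, as CPM + 0.1 on a log axis, by population, with WT in blue, KO in red, circles for replicate 1 and squares for replicate 2. The second KO library is the lowest of its population for the endothelial, adipocyte and Schwann cell lists, while the leukocyte list is highest in the second SSC KO library (33.0 CPM).

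The adipocyte genes were Pparg, the nuclear receptor that drives fat cell differentiation, Lpl, the lipase of triglyceride-rich lipoproteins, Fabp4, a fatty acid carrier, Adipoq, the hormone adiponectin, and Plin1, a lipid droplet coat protein. Lpl is expressed in several mesenchymal tissues and Fabp4 also in capillary endothelium, so neither is restricted to fat cells. Lpl measured 11.1 and 12 CPM in SSC WT, 54.0 and 51.6 CPM in pBCSP WT, and 260 and 228 CPM in BCSP WT, with no overlap between populations. In KO it measured 15.5 and 8.04 CPM in SSC, with 32.7 and 23.9 CPM in pBCSP, then 152 and 23.4 CPM in BCSP. Adipoq, which fat cells secrete, did not exceed 3.65 CPM, and Plin1 did not exceed 0.401 CPM. Pparg measured 2.76 to 5.96 CPM over the 6 WT libraries and 0 to 1.9 CPM over the 6 KO libraries. It was the single tested marker whose 6 KO libraries all lay below all 6 WT libraries, a pattern that 1.98% of the 17494 genes tested showed. An H3K4me3 peak covered its first start in all 6 lists. That start is shown as the most CpG-rich among the markers, with 44 CpG pairs in capitals, and lies at chr6:115360894-115361193 (plus strand).
Pparg: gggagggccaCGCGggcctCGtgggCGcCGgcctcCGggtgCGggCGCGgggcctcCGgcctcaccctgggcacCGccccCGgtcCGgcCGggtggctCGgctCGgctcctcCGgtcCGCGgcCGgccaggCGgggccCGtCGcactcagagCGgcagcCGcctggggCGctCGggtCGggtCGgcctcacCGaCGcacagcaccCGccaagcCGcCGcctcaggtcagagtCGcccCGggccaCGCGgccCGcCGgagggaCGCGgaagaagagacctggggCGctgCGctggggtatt

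Schwann cells ensheath peripheral nerve fibres. Sox10 encodes their lineage transcription factor and Mbp the myelin basic protein. Both were highest in SSC WT. Mbp measured 618 and 697 CPM in SSC WT, 10 and 37.7 CPM in pBCSP WT, and 50.5 and 303 CPM in BCSP WT. In KO it measured 210 and 0.222 CPM in SSC, with 5.99 and 0.769 CPM in pBCSP, then 114 and 2.31 CPM in BCSP. Sox10 measured 29.3 and 51.4 CPM in SSC WT against 8.87 and 0 CPM in SSC KO, and 1.40 to 9.78 CPM in the other WT libraries. All 9 further Schwann cell genes had lower fitted levels in WT BCSP than in WT SSC, with a median log2 difference of -1.87. Mbp overlaps Gm52337 and Rpl21-ps8 in RefSeq, so some of its reads could belong to either.

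**Figure D3:**
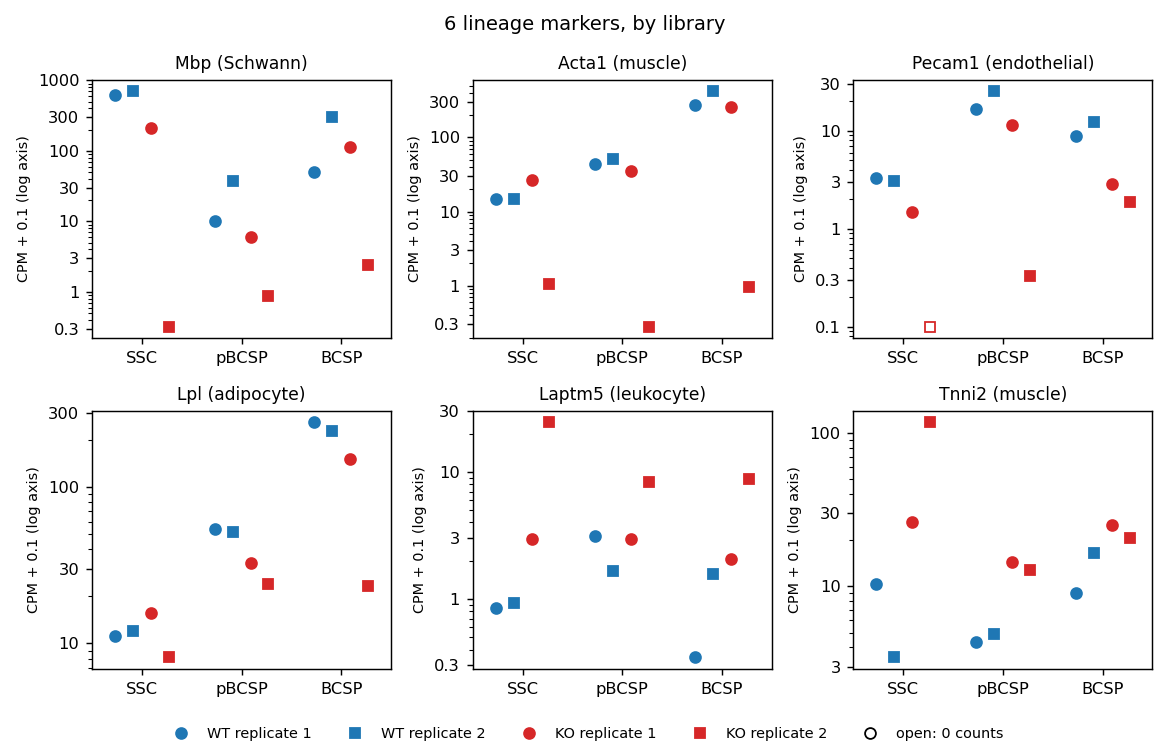
CPM + 0.1 on a log axis for Mbp, Acta1, Pecam1, Lpl, Laptm5 and Tnni2 in each library, by population, with WT in blue, KO in red, circles for replicate 1 and squares for replicate 2. For Mbp, Acta1 and Pecam1 the second KO library is the lowest of each population, whereas for Laptm5 it is the highest.

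The order of the WT populations was then tested. The main test was edgeR's quasi-likelihood test on all 12 libraries, with Benjamini-Hochberg adjusted p-values over the 17494 genes that passed a filter on low counts and a gene called at an adjusted p below 0.05. Of the 29 markers, 27 passed the filter, and Myh3 (up to 0.685 CPM) and Plin1 did not. No marker was called between any WT populations, where 0% of all genes tested were called. Without adjustment, p was below 0.05 for 4 of the 27 markers (14.8%) between pBCSP and SSC, as for 1.89% of all genes. It was below 0.05 for 1 (3.7%) between BCSP and pBCSP, near the 2.62% of all genes, and for 3 (11.1%) between BCSP and SSC, as for 3.48%. Over the same 3 comparisons, DESeq2 called 0, 0 and 1 markers, beside 38, 29 and 77 of all genes, the last 0.44%. Limma voom with sample quality weights called 1, 1 and 4 markers, beside 0.48%, 1.47% and 2.69% of all genes. Both WT libraries of pBCSP were above both of SSC for 15 of the 27 markers, or 55.6%, as for 18.8% of all genes tested. BCSP was above SSC in this way for 16 of the 27, or 59.3%, as for 20.8% of all genes. By the fitted difference, 18 of the 27 were more than 1 log2 unit higher in pBCSP than in SSC, as were 7.42% of all genes, and 2, Sox10 and Mbp, were that much lower, as were 8.23%. In BCSP, 17 were that much higher than in SSC, as were 10.8% of all genes, and Hbb-bs, Sox10 and Mbp were that much lower, as were 8.02%. Against pBCSP, 8 markers were that much higher in BCSP, namely 5 muscle markers, Lpl, Sox10 and Mbp, as were 11.7% of all genes, and 5, among them Hba-a1, Hbb-bs and Alas2, were that much lower, as were 6.48%. The difference was below 0 by any amount for 4 markers in pBCSP against SSC, 13 in BCSP against pBCSP and 5 in BCSP against SSC, beside 48%, 52.9% and 54.6% of all genes.

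In a fit to the 6 WT libraries alone, 6 markers were called between pBCSP and SSC. Tie1, Pecam1, Lpl, Acta1 and Myl1 were higher in pBCSP, where 0.48% of 16264 genes were called higher, and Sox10 was lower, where 0.701% were called lower. Tie1 differed by 4.42 ± 0.59 and Sox10 by -4.41 ± 0.71 on the log2 scale (SE), with edgeR adjusted p-values of 0.0154 and 0.0300. Between BCSP and pBCSP, Acta1, Ckm, Myl1, Des and Lpl were called higher in BCSP, against 1.67% of all genes. Between BCSP and SSC the same 5 and Pecam1 and Tie1 were called higher in BCSP, against 2.85% of all genes. There Acta1 differed by 4.58 ± 0.27 (edgeR adjusted p = 0.000345) and Lpl by 4.43 ± 0.21 (adjusted p = 0.000192). The fit to all 12 libraries gave nearly the same size for Lpl, 4.40 ± 0.77, with an edgeR adjusted p of 0.490. Over 21 alternatives the size for Lpl ranged from 4.30 to 4.49 and its adjusted p from 2.21e-15 to 1.00. The 3 comparisons share WT libraries, so they are not independent of each other.

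KO was compared with WT on average over the 3 populations and within each. No marker was called in the main fit on average, where 0.966% of the 17494 genes were called higher and 0.206% lower. Without adjustment, p was below 0.05 for 10 of the 27 markers, or 37%, as for 19.6% of all genes. DESeq2 called 6 markers, or 22.2%, as it did 9.68% of all genes, and limma voom with sample quality weights called 1, or 3.7%, as it did 1.67%. Libraries of 1 genotype with the same replicate number deviated together across populations (Pearson r across genes of 0.36 to 0.58), and the fits of KO against WT on average treat them as independent. The fitted difference was below 0 for 24 of the 27 markers, or 88.9%, as for 55.3% of all genes tested, and below -1 for 18, or 66.7%, as for 13.7% of all genes. The markers' median was -1.72 and that of all genes -0.09. Genes of other lists went both ways. Below 0 were 7 of 10 skeletal genes, with a median of -0.54, and 3 were above 0, up to 1.14. In either direction, 6 of the 10 had an unadjusted edgeR p below 0.05. Of 5 pericyte genes 4 were below 0, with a median of -1.49. In BCSP the skeletal median was -1.03, with 6 genes below 0 and 4 above, up to 1.72. None of these 15 genes was called by edgeR, and their part in the marker differences was not tested. The 1 lymphocyte gene tested was at 0.82. Of 6 granulocyte genes tested, 5 were below 0 on average, with a median of -1.44, but in SSC all 6 were above 0, with a median of 2.37. The 3 markers above 0 were Laptm5, at 2.66 ± 0.72, Tnni2, at 1.94 ± 0.42, and Lyz2, at 0.15 ± 0.40 (log2, SE). Above 1 were 2 of the 27, Laptm5 and Tnni2, as were 9.92% of all genes. No marker had all 6 KO libraries above all 6 WT libraries, as 3.08% of all genes did.

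Tnni2 came nearest to the threshold, with an edgeR adjusted p of 0.0641, and it was called in 5 of 20 alternatives, whose adjusted p-values ran from 3.81e-06 to 0.236. Hba-a1 followed, at -2.77 ± 0.63 with an edgeR adjusted p of 0.0724, and was also called in 5 of 20 alternatives (adjusted p from 1.58e-13 to 0.249). The other members under an unadjusted p of 0.05 were Hbb-bs, at -2.96 ± 0.74, Pparg, at -3.11 ± 0.96, Tyrobp, at -3.02 ± 0.96, Laptm5, and, with edgeR adjusted p-values of 0.187 to 0.248, Fcer1g, Tie1, Cdh5 and Pecam1. The 5 muscle markers other than the untested Myh3 spanned -0.97 ± 1.20 for Acta1 to 1.94 ± 0.42 for Tnni2. Among the further genes of these lineages, 1 of 13 endothelial genes was called lower, as were 0.206% of all genes. It was Ramp2, which encodes a partner of the adrenomedullin receptor. Ramp2 fell by 1.75 ± 0.34 with an edgeR adjusted p of 0.0495, from 69.5 to 123 CPM over WT to 11.9 to 44.1 CPM over KO, and was called in 8 of 20 alternatives. It did not follow the endothelial markers throughout. Ramp2 had reads in the second SSC KO library, where all 6 markers and 8 of the 13 further endothelial genes had 0 counts. None of the 10 leukocyte, 8 erythroid, 15 muscle, 2 adipocyte and 9 Schwann cell further genes tested was called by edgeR, where 4, 4, 0, 0 and 3 had an unadjusted p below 0.05. DESeq2 called C1qa, C1qb and C1qc, Hba-a2, Hbb-bt and Hemgn, and Prx among them, all lower in KO, where it called 3.67% of all genes lower and 6.01% higher.

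**Figure D4:**
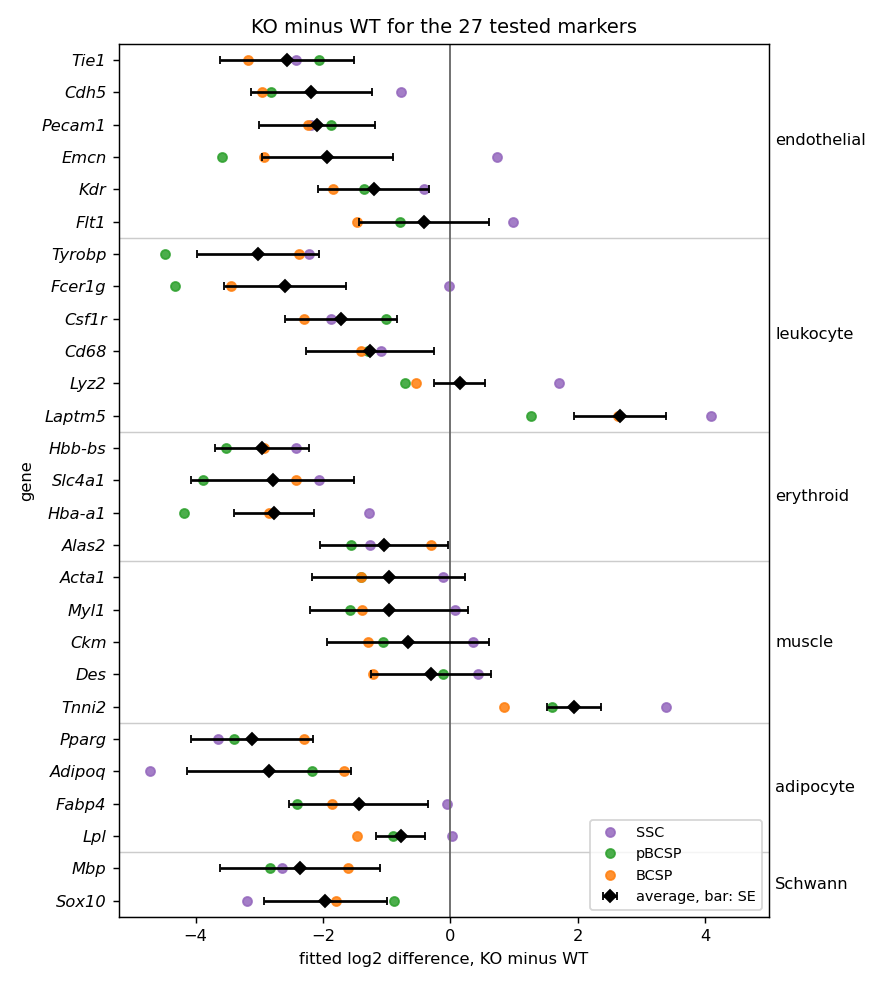
Fitted log2 difference, KO minus WT, of the 27 tested markers (rows), with the average over populations as a diamond with its SE and each population as a colored point. Laptm5 and Tnni2 lie above 0 in all 3 populations, and the points for BCSP lie below -1 for 23 of the 27 markers.

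Within single populations the main fit called no gene at all in SSC, pBCSP or BCSP, so 0% of all genes. Unadjusted p was below 0.05 for 3, 4 and 2 of the 27 markers (11.1%, 14.8% and 7.41%), beside 9.39%, 6.27% and 6.26% of all genes, so the shares in SSC and BCSP were near those of all genes. DESeq2 called 2 markers (Laptm5 and Tnni2), 1 (Hba-a1) and 0, beside 0.995%, 0.566% and 0.703% of all genes, and limma voom with sample quality weights called 0 in each. In BCSP the difference was below -1 for 23 of 27 markers, or 85.2%, as for 13.9% of all genes. In pBCSP it was below -1 for 20, or 74.1%, as for 13.2%, and in SSC for 13, or 48.1%, as for 24.8%. It was below 0 for 25 markers in BCSP, 25 in pBCSP and 18 in SSC, beside 50.4%, 51.5% and 59.7% of all genes. Both KO libraries lay below both WT libraries for 7, 18 and 19 markers in SSC, pBCSP and BCSP (25.9%, 66.7% and 70.4%). The same held for 25.8%, 24% and 26.4% of all genes, so the share in SSC was near that of all genes. Both KO libraries lay above both WT libraries for 3, 1 and 2 markers, beside 13.7%, 21.2% and 24.2% of all genes. The edgeR test of whether the KO effect differed between populations called no marker and no gene (0%), and no marker reached an unadjusted p of 0.05. The smallest unadjusted edgeR p among the markers was 0.0688, for Lyz2, followed by 0.0796 for Tnni2. DESeq2 called no marker in that comparison, beside 0.0171% of all genes. Its unadjusted p was below 0.05 for 2 of the 27 markers, or 7.41%, as for 2.91% of all genes.

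The second KO library of each population was then set beside the first. It was below the first in all 3 populations for 17 of the 27 tested markers, or 63.0%, as for 27.7% of all genes tested. In the second SSC KO library, 18 of the 27 had 0 counts, or 66.7%, as for 27.9% of all genes, and in the second pBCSP KO library 10, or 37.0%, as for 6.39%. The second BCSP KO library had 0 counts for none of the 27, yet 15 of them, or 55.6%, were below 0.25 of the first, as for 12.8% of all genes. In SSC 20 of the 27 were below 0.25 of the first, as for 35.5% of all genes, and in pBCSP 18, as for 11%. Between the WT libraries this held for 2, 0 and 0 of the 27 in SSC, pBCSP and BCSP, against 4.39%, 4.61% and 3.19% of all genes. By any amount, the second KO library was the lower for 21, 20 and 25 of the 27, against 61.6%, 51.3% and 52.2% of all genes, and the second WT library for 17, 12 and 6, against 49.5%, 50% and 50.5%. The 3 second KO libraries were then left out together, an alternative chosen after seeing the data. In that fit 20 of 28 tested markers were below 0 on average, with a median of -1.17 against -0.1 for all genes. Only the first library of each KO group then remained. The fit treated these as independent, although libraries with the same replicate number deviated together. Pecam1, Pparg and Hba-a1 were then called lower, where 1.81% of 18185 genes were called lower, and Tnni2 was called higher, where 1.83% were called higher. Acta1 was at 0.01 and Flt1 at 0.47 in that fit, so the direction of both turned. In SSC 13 of 28 markers were then below 0, against 18 of 27 with all libraries. Their median in SSC was 0.33, and that of all genes -0.09. In BCSP 24 of 28 markers were below 0, with a median of -1.06 against -0.03 for all genes. Without the first SSC KO library instead, 17 markers were called on average and 10 in SSC by edgeR, in fits that called 32% and 30.7% of all genes, and the lone second library was assumed to vary like the other groups. Without the first BCSP KO library, Lpl and Hba-a1 were called lower on average, where 1.82% of all genes were called.

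The start regions of 19 of the 29 markers are in the RefSeq promoter table, and neither Schwann cell marker, Sox10 or Mbp, is among them. An H3K4me3 peak within 1000 bases of a start in all 3 WT lists was found for 4 of these 19 (Kdr, Flt1, Des and Pparg), or 21.1%, as for 64% of 17492 protein-coding genes. In KO it was the same 4 genes, and 63.9% of all. The authors' fold enrichment of these peaks was 11.0 to 15.8 for Kdr, 8.13 to 11.1 for Flt1, 3.96 to 8.07 for Des and 10.8 to 15.8 for Pparg over the 6 lists. Each group had 1 list, so differences between WT and KO have no replicate. Cd68 had a peak in the SSC WT list, with a fold enrichment of 2.95, and in none of the other 5. Of 4 further Schwann cell genes with a start, 3 had an H3K4me3 peak in the SSC WT list and 4 in the SSC KO list. In each pBCSP and BCSP list 2 of them did. No H3K27ac peak lay within 1000 bases of any of the 19 starts in any of the 12 lists of that mark, which covered 0.212% to 17.2% of all starts. The 7 skeletal genes in the table all had H3K4me3 peaks in the SSC WT and SSC KO lists. H3K27ac peaks covered 0 of these 7 starts in the SSC lists and at most 1 of them in any pBCSP or BCSP list. That mark was thus missing at most skeletal starts too, which limits what its absence at the markers shows.

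Acta1 had no peak in the BCSP WT list of H3K4me3, although its RNA measured 272 and 416 CPM in the BCSP WT libraries. The 4 starts with a peak had 11 to 44 CpG pairs in 300 bases, taking the most CpG-rich start of a gene, and the 15 without had 0 to 12. Over all protein-coding genes the median was 22 CpG pairs with a peak in all 3 WT lists and 3 without. Des, with 11 CpG pairs, had a peak in all 3 WT lists, and Acta1, with 12, had none in any of them. The part of CpG content in the presence of the mark was not tested.

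**Figure D5:**
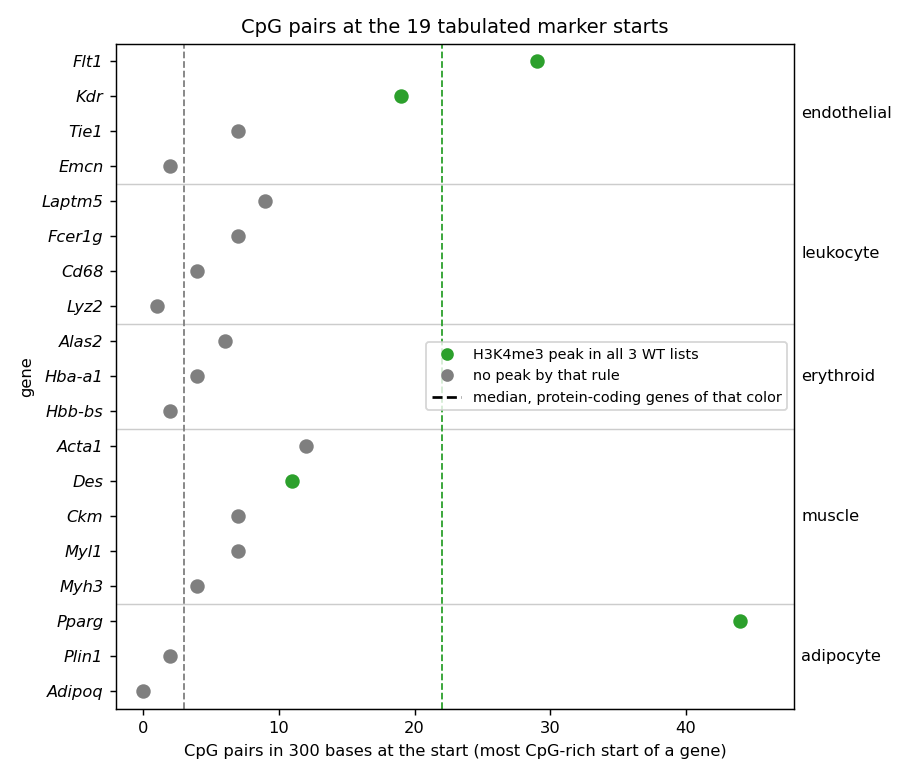
CpG pairs in the 300 bases at the start (x axis, most CpG-rich start of a gene) of the 19 markers with a tabulated start (rows, grouped by lineage), in green where an H3K4me3 peak was found in all 3 WT lists and in grey otherwise; dashed lines are the medians of all protein-coding genes, at 22 with a peak and 3 without. The green points other than Des lie at 19 CpG pairs or more, and Des, at 11, lies below Acta1, at 12, which has no peak.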

How the data were processed

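The 29 markers and the further gene lists were chosen with earlier results of these data known. RNA was sequenced in 12 libraries, 2 for each of SSC, pBCSP and BCSP in WT and KO, and H3K4me3 (6 lists) and H3K27ac (12 lists) peaks were taken at gene starts. H3K4me1 lists were not used here. The deposited RNA values are raw read counts of each gene, left unnormalised by the authors, from poly(A) RNA per the labels' protocols. GRCm38, MACS2 2.2.6, SAMtools 1.9, featureCounts 2.0.1, Bowtie2 2.3.5.1 and Trim Galore 0.6.6 are named in the submitters' processing notes. Not given in the sources used here are strand, the annotation and the counting of shared reads. Peak lists were deposited per sample, and the authors' fold enrichment, a ratio, and -log10 q of each peak served to describe or filter peaks within a list.

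Counts were tested with edgeR 4.0.16 (R 4.3.3; TMM, filterByExpr with a minimum count of 10, 1 mean per group over 12 libraries, glmQLFit and glmQLFTest, Benjamini-Hochberg adjustment over 17494 genes, calls at 0.05). DESeq2 1.42.0, limma 3.58.1 (voom with sample quality weights), other scalings, no filter, each library left out, WT libraries only, the 2 groups compared only, pBCSP and BCSP only, and replicate blocks were alternatives. The test was checked on counts simulated as independent libraries. The real libraries with the same replicate number deviated together, so the check does not show how the test behaves there. Named genes are all 29 markers, the further genes past an adjusted p of 0.05, the 2 of each further list with the highest mean CPM, the sort surface genes and Paxip1; Neb, Ttn, Mpo, Ms4a1 and Cd3g were named after their values were seen. Some genes that this rule names are not reported here. Listed genes were matched by symbol, 142 of 143, and 55141 of 55487 identifiers had a symbol. A peak counted at a gene if it overlapped the 1000 bases either side of a start by at least 1 base. Windows of 500 and 2000 bases, a minimum -log10 q of 5 and an overlap of 200 bases were tried. Starts and sequences are from RefSeq on GRCm38.p6.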

Additional observations from a re-analysis of the deposited data

Results flagged for a closer look

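The order of WT and KO for Lyz2 was opposite between populations. Both SSC KO libraries were above both SSC WT libraries, while both KO libraries of pBCSP and of BCSP were below both WT libraries. Of all genes tested, 13.7% showed the SSC order, 24% the pBCSP order and 26.4% the BCSP order. All markers were searched for such a reversal, and Lyz2 was the only one found. SSC had a fitted log2 difference, KO minus WT, of 1.71 ± 0.72, pBCSP one of -0.71 ± 0.70 and BCSP one of -0.54 ± 0.70 (SE, 2 libraries a group). The edgeR test of whether the difference varied between populations gave an unadjusted p of 0.0688 and an adjusted p of 1.00, so it did not pass. Without the first SSC KO library Lyz2 was among 3 markers called by that test, with Tnni2 and Sox10, in a fit that called 2082 genes, or 10.8% of all. In SSC the granulocyte genes had their highest sum in the same library as Lyz2, and their part in the difference was not tested.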

How the results depend on the processing

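Counts of markers called by edgeR were 0 in each comparison and were 0 under both other scalings. Those scalings called 0.8% and 0.863% of all genes for KO against WT on average. The cause of the changes below was not tested. Without the filter on low counts, 12 were called on average (5.78% of all genes), 4 in SSC (1.21%), 3 in pBCSP (0.799%), 3 in BCSP (1.04%), 4 between WT pBCSP and SSC (0.409%), 5 between WT BCSP and pBCSP (0.329%) and 6 between WT BCSP and SSC (0.756%). DESeq2 called 6, 2, 1 and 0 in the KO comparisons in the same order and 1 between WT BCSP and SSC. Limma voom with sample quality weights, which were 0.213 to 0.813 for KO and 1.69 to 2.42 for WT libraries, called 1 on average and 1, 1 and 4 between WT populations; the shares of all genes called by both tools stand beside these counts above. Fits to the 2 groups compared called 6, 5 and 8 between WT populations (0.708%, 2.66% and 4.35% of all genes) and 0 within populations for KO, and fits to the WT libraries alone 6, 5 and 7 (1.18%, 2.06% and 3.45%). Leaving out each library in turn gave 0 to 17 on average (17, beside 32% of all genes, without the first SSC KO library, 2, beside 1.82%, without the first BCSP KO library), 0 to 10 in SSC, 0 to 3 for the difference between populations (30.7% and 10.8% of all genes at the highest) and 0 to 1 between WT BCSP and SSC, where Lpl was called without either BCSP KO library. With the first KO replicates only, chosen after seeing the data, 4 were called on average (3.63% of all genes).

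With the replicate number as a block (replicate block), 0 markers were called in every comparison, beside 0.806% of all genes for KO against WT on average. The numbers did not pair WT with KO: the difference between the first and second library correlated across genes at 0, -0.02 and -0.09 between WT and KO of the same population. Between populations of 1 genotype it correlated at 0.36 to 0.58. A block within each genotype, chosen after seeing the data, called 3 between WT BCSP and SSC (Myl1, Ckm and Lpl, beside 0.16% of all genes) and 0 in the other WT comparisons.

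Of 1060 alternative values of single genes, 920 kept direction and side of the threshold, 111 passed it, 23 no longer did and 6 changed sign. With the first KO replicates only, Flt1 was at 0.47, Lyz2 at -0.12 and Acta1 at 0.01 on average. Lyz2 was also at -0.01 without the second SSC WT library and at -0.63 over pBCSP and BCSP only, and leaving out each library in turn gave -0.21 (without the second SSC KO library) to 0.37. Scaling by total counts moved the median of all genes in SSC from -0.22 to -0.35. The number of markers with an H3K4me3 peak was 4 in WT and 4 in KO, and that with H3K27ac 0 in both, under each window and overlap tried; a minimum -log10 q of 5 left 3 in WT and 4 in KO. With 2 libraries a group, levels near 3 reads in several libraries limit Tyrobp, Csf1r and Fcer1g.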

Other observations

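Lcp1, which encodes the actin-bundling protein L-plastin of blood cells, was measured with the further leukocyte genes and did not follow them. It measured 5.72 and 6.13 CPM in BCSP WT and 69.3 and 71.5 CPM in BCSP KO, and 21.7 and 6.21 CPM in pBCSP WT and 42.5 and 32.7 CPM in pBCSP KO. In SSC it measured 15.9 and 1.19 CPM in WT and 11.2 and 0 CPM in KO. EdgeR did not call it in any comparison, and its unadjusted p in BCSP was 0.0644.

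Tek, which encodes the receptor Tie2, measured 0.461 and 0.537 CPM in SSC WT, 4.41 and 5.62 CPM in pBCSP WT, and 10.6 and 10.1 CPM in BCSP WT, and had 0 counts in all 3 second KO libraries. The first KO libraries had 1.52 CPM in SSC, above both WT libraries, 4.16 CPM in pBCSP, just below both, and 3.74 CPM in BCSP, below both. Erg, which encodes a transcription factor of endothelium and also of articular cartilage, had the opposite order from Pecam1 between SSC and BCSP. It measured 20.1 and 45.2 CPM in SSC WT and 8.09 and 9.10 CPM in BCSP WT.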
